A study of Mus musculus with 15 samples.

Results

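Zinc transporters, metallothioneins and their metal sensor were read out in 15 RNA-seq libraries of mouse colonic crypts. The 9 genes were picked by symbol from the 32939 genes of the count table, and their levels in all 15 samples were known when they were picked, so these levels are described here and not tested. They are 3 exporters of the Slc30 (ZnT) family (Slc30a1, Slc30a2 and Slc30a10), 3 importers of the Slc39 (ZIP) family (Slc39a4, Slc39a5 and Slc39a14), the metallothioneins Mt1 and Mt2, and Mtf1. All 9 were found and all 9 were among the 17404 genes with enough counts to be fitted. There were 3 groups of 5 samples. FL-shAlpl mice had the CDAA diet, fatty liver and AAV-shAlpl, FL-shGFP mice had the CDAA diet, fatty liver and AAV-shGFP, and NL-shGFP mice had the normal diet, a normal liver and AAV-shGFP. All were of WT genotype and all had received a virus with a short hairpin. CDAA names choline-deficient, L-amino acid-defined feeds, and shAlpl targets Alpl, the gene of tissue-nonspecific alkaline phosphatase, a zinc enzyme. Diet and liver condition changed together and no normal-liver group had AAV-shAlpl, so their parts cannot be told apart. The labels give neither the age or sex of the mice nor the tissue the virus reached, and nothing in them says that replicates come from separate animals, so the spread between samples may be partly technical.

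Zinc enters the gut epithelium through ZIP proteins, which move the metal into the cytosol, and leaves it through ZnT proteins, which move it out of the cell or into vesicles. Inside the cell, metallothioneins, small proteins rich in cysteine, bind zinc and copper. MTF-1, the product of Mtf1, is a zinc finger transcription factor that binds DNA elements called metal response elements (MREs) when free zinc is high, and Mt1, Mt2 and Slc30a1 are its textbook targets.

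The sequences around the RefSeq starts of these 3 targets hold short matches to the core of such an element. Another start would give another window, so the number of matches and their positions rest on the start used. Each run below starts 250 bases before the RefSeq start of the gene and ends 30 bases after it (GRCm38.p6, plus strand, Mt1 at chr8:94178839-94179118, Mt2 at chr8:94172368-94172647 and Slc30a1 at chr1:191906531-191906810). Capitals mark a match to the MRE core, read as TGCACNC or TGCGCNC on either strand.
Mt1: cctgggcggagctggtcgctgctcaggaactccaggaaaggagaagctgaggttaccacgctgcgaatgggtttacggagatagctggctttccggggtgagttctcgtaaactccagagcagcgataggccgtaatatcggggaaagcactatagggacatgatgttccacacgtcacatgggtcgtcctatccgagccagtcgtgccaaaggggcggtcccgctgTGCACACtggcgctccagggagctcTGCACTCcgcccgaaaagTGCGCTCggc
Mt2: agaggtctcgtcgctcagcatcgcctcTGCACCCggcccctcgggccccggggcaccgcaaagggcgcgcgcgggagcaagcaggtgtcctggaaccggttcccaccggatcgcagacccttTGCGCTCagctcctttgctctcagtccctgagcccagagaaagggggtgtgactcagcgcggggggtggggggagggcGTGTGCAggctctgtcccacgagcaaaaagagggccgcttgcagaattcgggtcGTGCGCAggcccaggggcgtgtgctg
Slc30a1: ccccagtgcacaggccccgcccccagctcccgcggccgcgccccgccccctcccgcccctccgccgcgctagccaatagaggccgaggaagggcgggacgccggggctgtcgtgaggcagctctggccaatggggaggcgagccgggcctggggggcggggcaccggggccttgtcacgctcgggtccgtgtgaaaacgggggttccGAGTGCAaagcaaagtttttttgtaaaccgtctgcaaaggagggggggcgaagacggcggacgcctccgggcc
In the whole 300-base window, which runs to 50 bases after the start, Mt2 held 4 matches, Mt1 and Slc30a10 held 3 each, and Slc30a1 and Slc30a2 held 2 each. For Slc30a1 the first match began 43 bases before the start and the other 31 bases after it, beyond the printed run. Of the 3 matches of Slc30a10, 2 overlap, lying on opposite strands and offset by 1 base. Slc39a5 held 1 match in 1 of its 2 windows and Mtf1 held 0, which says only that these letters are not in that window. Among 32851 promoter windows of the same length, 25.7% held at least 1 match, 7.11% at least 2, 1.97% at least 3 and 0.517% at least 4. RefSeq windows were used for 7 of the 9 genes, and the matches are letters in a window and not measured binding.

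In the GENCODE M21 annotation of GRCm38, all 9 genes are protein coding. Mt1 lies at chr8:94179082-94180327 and Mt2 at chr8:94172664-94173568, 5514 bases apart in a cluster of 4 metallothionein genes on the plus strand in the order Mt4, Mt3, Mt2, Mt1, which spans 43131 bases. Slc30a1 lies at chr1:191906767-191913247, Slc30a2 at chr4:134343181-134354484, Slc30a10 at chr1:185454848-185468762 and Mtf1 at chr4:124802104-124849800, all on the plus strand. The 3 importers lie on the minus strand, Slc39a4 at chr15:76612383-76617384, Slc39a5 at chr10:128395931-128401229 and Slc39a14 at chr14:70303469-70351425. Mt1 has no overlapping gene there, but 432 of the 588 exon bases of Mt2 (73.5%) lie under the antisense gene Gm45774. Slc30a1, Slc30a10 and Mtf1 share 8.92%, 9.13% and 8.09% of their exon bases with a gene on the other strand. How strand was treated in the deposited counts is not given in the sources used here, so reads of such partners cannot be told apart.

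Values are counts scaled to CPM by the TMM-adjusted library total unless FPKM, which also divides by gene length, is named. Library totals ran from 42.1 M to 58.6 M counts in FL-shAlpl, from 37.5 M to 51.7 M in FL-shGFP and from 33.3 M to 41.4 M in NL-shGFP. The mitochondrial share of counts was 19.96 ± 4.05%, 16.7 ± 3.34% and 33.2 ± 3.99% in FL-shAlpl, FL-shGFP and NL-shGFP (SD, n = 5). Alpl, the targeted gene, had 6, 2, 2, 2 and 0 counts in FL-shAlpl replicates 1 to 5, against 15, 14, 18, 25 and 23 in FL-shGFP and 0, 2, 0, 0 and 0 in NL-shGFP. Its RNA was low in these crypts in every group, and the liver was not analysed here. Colonic epithelium markers (Epcam, Krt8, Cdx2 and 7 others) were all detected in each group and summed to between 6900 and 13200 CPM. FL-shAlpl replicate 1 stood apart, with 716 CPM of small intestine and Paneth cell markers against at most 142 CPM in any other library, so values that rest on it most are also given without it. NL-shGFP replicates 3 and 4, and 1 and 2, were the closest pairs of libraries, but both differed by more than sampling noise and all 15 libraries were kept separate.

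Per unit of gene length, Mt1 and Slc39a4 stood far above the other genes. The mean FPKM of Mt1 was 145 ± 62.9 in FL-shAlpl, 376 ± 115 in FL-shGFP and 41.1 ± 5.46 in NL-shGFP (SD, n = 5). Slc39a4 followed with 74.0 ± 9.65 FPKM in FL-shAlpl, 123 ± 14.2 in FL-shGFP and 54.3 ± 6.27 in NL-shGFP. By this measure Mt1 was above Slc39a4 in every sample of both fatty liver groups and below it in every NL-shGFP sample. The exon length of 1246 bases used for Mt1 covers the whole gene and leaves out no intron. With a shorter transcript length its FPKM would be higher, so the order of Mt1 and Slc39a4 in NL-shGFP rests on that length. Slc39a5 was the third in all 3 groups, at 18.3 ± 3.19, 16.5 ± 4.15 and 20.9 ± 4.52 FPKM in FL-shAlpl, FL-shGFP and NL-shGFP. The other 6 genes had mean levels from 0.127 FPKM (Mt2 in NL-shGFP) to 9.39 FPKM (Slc30a1 in FL-shGFP), and Slc30a10 did not exceed a mean of 1.30 FPKM in any group.

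**Figure D1:**
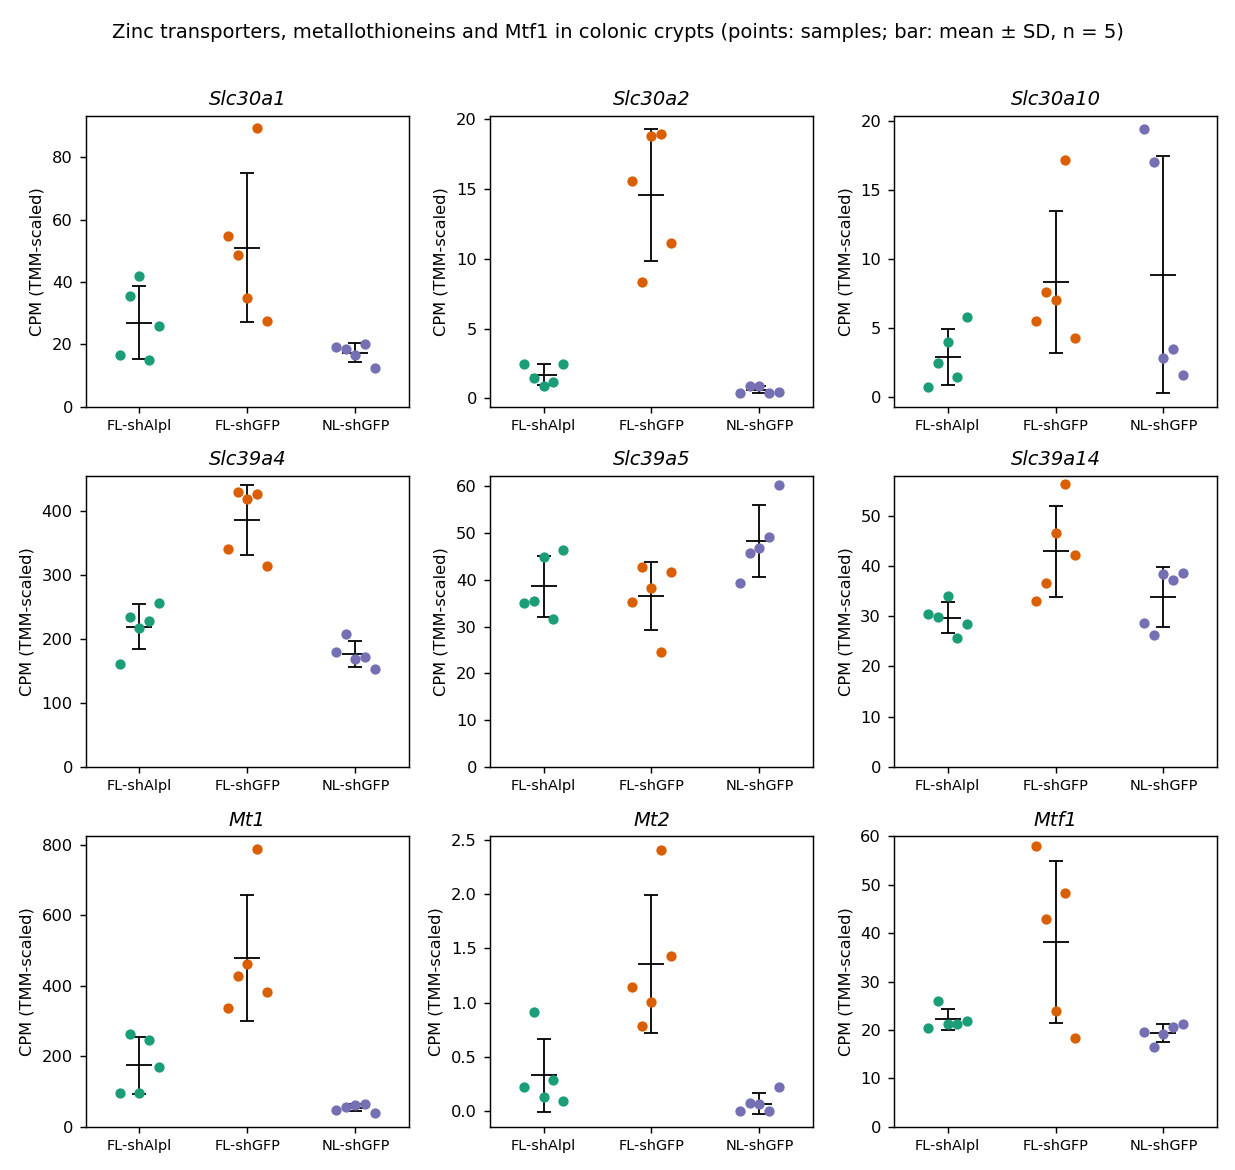
CPM of the 9 genes in each of the 15 samples, one panel per gene with its own linear axis, groups from left to right FL-shAlpl, FL-shGFP and NL-shGFP, horizontal bars and whiskers for mean ± SD (n = 5). Slc30a2, Slc39a4 and Mt1 in FL-shGFP lie clear of both other groups, while Slc30a10 in NL-shGFP falls into replicates 1 and 2 at 19.4 and 17.1 CPM and replicates 3 to 5 at 3.44 CPM or less.

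Among the exporters, Slc30a2 differed most between FL-shGFP and the other groups. Its product ZnT2 loads zinc into vesicles and secretory granules. Slc30a2 had 2.48, 1.44, 0.911, 1.19 and 2.498 CPM in FL-shAlpl replicates 1 to 5, against 15.6, 8.35, 18.8, 18.9 and 11.1 CPM in FL-shGFP and 0.420, 0.922, 0.883, 0.424 and 0.455 CPM in NL-shGFP. Every FL-shGFP sample was above every sample of the other groups, and FL-shAlpl and NL-shGFP overlapped only at the FL-shAlpl value of 0.911. The log2 fold change was 4.54 ± 0.38 in FL-shGFP over NL-shGFP (SE, 95% interval from 3.74 to 5.34), -3.09 ± 0.34 in FL-shAlpl over FL-shGFP (-3.82 to -2.37) and 1.45 ± 0.35 in FL-shAlpl over NL-shGFP (0.70 to 2.20). FL-shAlpl replicate 1, the library with the highest sum of small intestine and Paneth cell markers, was the second highest of its group for Slc30a2. Without it, the value was -3.27 in FL-shAlpl over FL-shGFP and 1.27 in FL-shAlpl over NL-shGFP.

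Slc30a1 encodes ZnT1, which moves zinc out across the plasma membrane. It had 16.7, 35.5, 42.0, 14.9 and 25.7 CPM in FL-shAlpl, against 54.8, 48.7, 34.8, 89.3 and 27.4 CPM in FL-shGFP and 19.1, 18.4, 16.4, 19.99 and 12.4 CPM in NL-shGFP. FL-shGFP lay above NL-shGFP throughout, while FL-shAlpl overlapped both groups, with replicates 1 and 4 within the NL-shGFP range. On the log2 scale it differed by 1.56 ± 0.33 (0.87 to 2.25) in FL-shGFP over NL-shGFP, -0.92 ± 0.32 (-1.60 to -0.24) in FL-shAlpl over FL-shGFP and 0.64 ± 0.32 (-0.04 to 1.32) in FL-shAlpl over NL-shGFP. FL-shGFP replicate 4 carried part of this difference, and without it the value in FL-shAlpl over FL-shGFP was -0.62. Without FL-shAlpl replicate 1 that value was -0.78.

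Slc30a10, named as a zinc transporter but best known as a manganese exporter, did not share the rise of the other exporters in FL-shGFP over NL-shGFP. In FL-shAlpl against FL-shGFP it was lower on average, as they were. It had 0.748, 2.49, 3.97, 1.42 and 5.81 CPM in FL-shAlpl, against 5.52, 7.58, 7.01, 17.2 and 4.26 CPM in FL-shGFP and 19.4, 17.1, 2.81, 3.44 and 1.62 CPM in NL-shGFP. The NL-shGFP samples fell apart, since replicates 1 and 2 were the highest and the third highest of all 15 samples and replicates 3 to 5 were below every FL-shGFP sample. The log2 fold change was -0.10 ± 0.67 (-1.53 to 1.34) in FL-shGFP over NL-shGFP, an interval that holds both signs. It was -1.53 ± 0.69 (-3.004 to -0.05) in FL-shAlpl over FL-shGFP and -1.63 ± 0.70 (-3.11 to -0.14) in FL-shAlpl over NL-shGFP. Without NL-shGFP replicate 1 the first of these was 0.40, and without FL-shGFP replicate 4 it was -0.54, so its sign rests on single libraries. FL-shAlpl replicate 1 was the lowest of its group, and without it the values were -1.28 in FL-shAlpl over FL-shGFP and -1.38 in FL-shAlpl over NL-shGFP.

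Of the importers, Slc39a4 had 3 groups with little scatter, each with an SD of at most 16.3% of its mean. It encodes ZIP4, the transporter that takes up dietary zinc at the apical face of enterocytes and whose human gene is mutated in acrodermatitis enteropathica. Slc39a4 had 161, 235, 218, 229 and 256 CPM in FL-shAlpl, against 341, 429, 419, 427 and 315 CPM in FL-shGFP and 180, 207, 168, 172 and 153 CPM in NL-shGFP. The FL-shGFP samples lay above all samples of both other groups, and 4 of the 5 FL-shAlpl samples lay above every NL-shGFP sample. In log2 terms the fold change was 1.13 ± 0.14 (0.85 to 1.42) in FL-shGFP over NL-shGFP, -0.82 ± 0.13 (-1.10 to -0.53) in FL-shAlpl over FL-shGFP and 0.32 ± 0.13 (0.03 to 0.60) in FL-shAlpl over NL-shGFP. FL-shAlpl replicate 1 was the lowest sample of its group, and without it the last value was 0.41.

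Slc39a5 and Slc39a14 were closer to level. Slc39a5 encodes ZIP5, an importer of the basolateral membrane, and had 35.1, 35.5, 44.9, 31.5 and 46.3 CPM in FL-shAlpl, against 35.3, 42.8, 38.3, 24.5 and 41.6 CPM in FL-shGFP and 39.3, 45.8, 46.9, 49.2 and 60.4 CPM in NL-shGFP. All 3 groups overlapped, with NL-shGFP the highest on average. Its log2 fold change was -0.40 ± 0.16 (-0.73 to -0.07) in FL-shGFP over NL-shGFP, 0.08 ± 0.15 (-0.25 to 0.41) in FL-shAlpl over FL-shGFP and -0.32 ± 0.16 (-0.65 to 0.01) in FL-shAlpl over NL-shGFP.

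Slc39a14 encodes ZIP14, which carries zinc, manganese and non-transferrin iron. It had 30.4, 29.8, 34.1, 25.6 and 28.5 CPM in FL-shAlpl, against 33.0, 36.6, 46.5, 56.4 and 42.2 CPM in FL-shGFP and 28.7, 26.2, 38.4, 37.3 and 38.7 CPM in NL-shGFP. Of the FL-shAlpl samples, 4 of 5 were below every FL-shGFP sample, while NL-shGFP overlapped both. Fold changes on the log2 scale were 0.34 ± 0.15 (0.03 to 0.65) in FL-shGFP over NL-shGFP, -0.53 ± 0.15 (-0.84 to -0.22) in FL-shAlpl over FL-shGFP and -0.19 ± 0.15 (-0.50 to 0.12) in FL-shAlpl over NL-shGFP. FL-shGFP replicate 4 held the highest Slc39a14 and the lowest Slc39a5 of all 15 samples.

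Mt1 was the one gene of the set for which all 3 groups were apart. Mt1 had 96.0, 263, 95.2, 246 and 170 CPM in FL-shAlpl, against 336, 429, 462, 786 and 382 CPM in FL-shGFP and 47.8, 55.3, 60.7, 64.5 and 40.4 CPM in NL-shGFP. The lowest FL-shAlpl sample was above the highest NL-shGFP sample, and the highest FL-shAlpl sample was below the lowest FL-shGFP sample. The log2 fold change was 3.16 ± 0.32 (2.47 to 3.84) in FL-shGFP over NL-shGFP, -1.46 ± 0.30 (-2.10 to -0.82) in FL-shAlpl over FL-shGFP and 1.69 ± 0.30 (1.05 to 2.34) in FL-shAlpl over NL-shGFP. FL-shGFP replicate 4 was far above the other 4, and without it the first of these values was 2.90 and the second -1.21. Within FL-shAlpl, replicates 1 and 3 were alike and well below replicates 2 and 4.

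Mt2 had the same order of group means as Mt1 but was counted near zero. Its counts were 13, 53, 7, 14 and 4 in FL-shAlpl, against 53, 39, 50, 81 and 76 in FL-shGFP and 0, 3, 2, 0 and 8 in NL-shGFP. Low counts were even more often than odd, so a molecule may enter as more than 1 count. Every FL-shGFP sample was above every NL-shGFP sample, and 4 of 5 FL-shAlpl samples were below every FL-shGFP sample. The log2 fold change was 4.15 ± 0.79 (2.48 to 5.82) in FL-shGFP over NL-shGFP, -1.995 ± 0.65 (-3.38 to -0.61) in FL-shAlpl over FL-shGFP and 2.15 ± 0.79 (0.47 to 3.83) in FL-shAlpl over NL-shGFP. Single libraries set much of this, since the first value was 5.15 without NL-shGFP replicate 5, the second -2.88 without FL-shAlpl replicate 2, and the third lay between 1.28 without FL-shAlpl replicate 2 and 3.16 without NL-shGFP replicate 5.

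The neighbouring metallothionein genes were thus counted very unequally. There were 489 Mt1 counts for each Mt2 count in FL-shAlpl, 356 in FL-shGFP and 733 in NL-shGFP. Gm45774, the antisense gene over most of the Mt2 exons, had 2, 6, 6, 4 and 0 counts in FL-shAlpl, 13, 2, 10, 28 and 26 in FL-shGFP and 2, 6, 4, 2 and 6 in NL-shGFP, low like Mt2. The sources used here do not say how reads that fall on both genes were counted. The part of this overlap in the low counts of Mt2 was not tested, and the level of Mt2 is uncertain for that reason.

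Mtf1, the sensor itself, was split within FL-shGFP. It had 20.5, 26.0, 21.3, 21.3 and 21.96 CPM in FL-shAlpl, against 57.9, 43.0, 23.8, 48.3 and 18.2 CPM in FL-shGFP and 19.5, 16.5, 19.3, 20.5 and 21.2 CPM in NL-shGFP. FL-shGFP replicates 1, 2 and 4 were above every other sample, replicate 3 was inside the FL-shAlpl range and replicate 5 inside the NL-shGFP range. Its log2 fold changes were 0.98 ± 0.24 (0.47 to 1.49) in FL-shGFP over NL-shGFP, -0.78 ± 0.24 (-1.29 to -0.28) in FL-shAlpl over FL-shGFP and 0.20 ± 0.24 (-0.31 to 0.70) in FL-shAlpl over NL-shGFP. FL-shGFP replicates 1, 2 and 4 also had the highest Slc30a1 of that group. Mt1 and Mt2 did not keep that order. Within FL-shGFP both were highest in replicate 4, but Mt1 was lowest in replicate 1 (336 CPM) and Mt2 in replicate 2 (0.791 CPM).

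**Figure D2:**
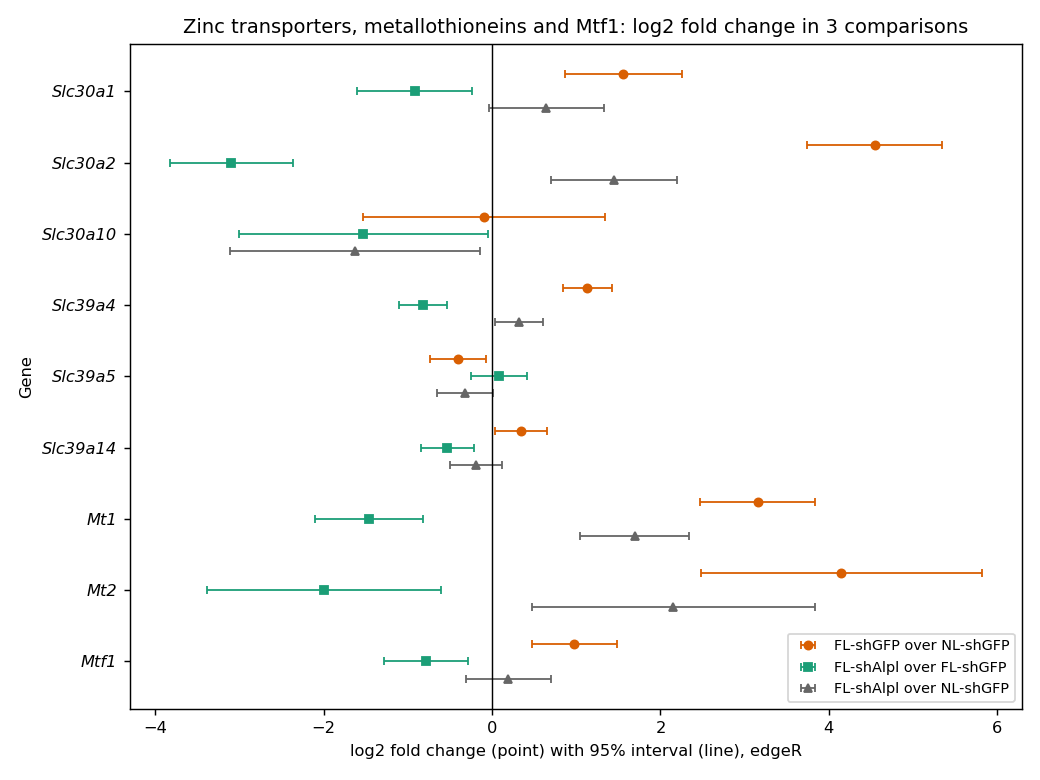
Log2 fold change (horizontal axis, points) with 95% interval (lines) from edgeR for the 9 genes in FL-shGFP over NL-shGFP, FL-shAlpl over FL-shGFP and FL-shAlpl over NL-shGFP. The intervals of Slc30a2, Mt1 and Mt2 in FL-shGFP over NL-shGFP begin at 3.74, 2.47 and 2.48, and those of Slc39a5 reach no further than -0.73.

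Counts of genes past a threshold need the background of the whole table. Past an edgeR adjusted p of 0.05 stood 7 of 9 in FL-shGFP against NL-shGFP, 6 of them higher and Slc39a5 lower, in a comparison where 46.7% of all genes fitted passed (25.1% higher, 21.6% lower). The samples did not overlap for 5 of the 9, all higher, against 18.1% of all genes that were higher without overlap. In FL-shAlpl against FL-shGFP 7 of 9 passed, all lower, where 36.0% of all genes passed and 17.9% were lower. Slc30a2, Slc39a4 and Mt1 were lower without overlap there, as were 9.29% of all genes. Without FL-shGFP replicate 4 the count was 4 of 9. Some of these calls were not stable. That of Slc39a5 in FL-shGFP against NL-shGFP was lost under 11 of 26 alternative settings, among them totals alone and leaving out FL-shGFP replicate 1, 3 or 4, NL-shGFP replicate 2, 3, 4 or 5 or FL-shAlpl replicate 2 (log2 fold change -0.42 to -0.29 then). In FL-shAlpl against FL-shGFP the Slc30a1 call was lost under 10 of 26, among them leaving out FL-shAlpl replicate 1, 4 or 5 or FL-shGFP replicate 1, 2 or 4 (-0.93 to -0.62). The Mt2 call there was lost without FL-shAlpl replicate 1, 3 or 4 or FL-shGFP replicate 4 (-1.94 to -1.69), and that of Mtf1 without FL-shGFP replicate 1 or 4 or with only these groups fitted. In FL-shAlpl against NL-shGFP Slc30a2 and Mt1 passed, both higher, where 17.4% of all genes passed and 9.31% were higher, and Mt1 alone did not overlap, as 7.54% of all genes did in that direction. The median log2 fold change of the 9 was 1.13, -0.92 and 0.32 in the 3 comparisons, beside -0.00, -0.00 and 0.05 over all genes fitted. Since these levels were known when the genes were picked, the counts describe them and carry no weight as a test. FL-shGFP samples enter both of the comparisons that involve them, so the opposite signs there are not independent.

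Cell type markers also differed between the groups. Summed surface colonocyte markers (Slc26a3, Car4, Aqp8, Guca2a and 6 others) were 3480 to 9380 CPM in FL-shAlpl, 7880 to 21600 CPM in FL-shGFP and 1650 to 4390 CPM in NL-shGFP. Of these 10 markers, 9 rose in FL-shGFP over NL-shGFP, 8 fell in FL-shAlpl against FL-shGFP and 4 rose in FL-shAlpl over NL-shGFP (edgeR adjusted p below 0.05). All marker counts here stand beside all genes fitted, of which 25.1% were higher and 21.6% lower in FL-shGFP against NL-shGFP. In FL-shAlpl against FL-shGFP 36.0% of all genes passed and 17.9% were lower. In FL-shAlpl over NL-shGFP 9.31% of all genes were higher. FL-shGFP replicates 1, 2 and 4, with the highest Mtf1 and Slc30a1 of that group, also had its highest surface colonocyte sums. These were 17900, 21600 and 20700 CPM, against 13600 and 7880 CPM in replicates 3 and 5. FL-shGFP replicate 5 had the lowest surface colonocyte sum of its group and also its lowest Slc30a1, Slc30a10, Slc39a4 and Mtf1. The other zinc genes were lowest elsewhere in that group. Slc30a2 and Mt2 were lowest in replicate 2, which had the highest surface colonocyte sum (21600 CPM). Slc39a14 and Mt1 were lowest in replicate 1 and Slc39a5 in replicate 4. Immune markers summed to 77 to 295 CPM in FL-shAlpl, 231 to 693 CPM in FL-shGFP and 98.5 to 257 CPM in NL-shGFP, and 8 of 12 rose in FL-shGFP over NL-shGFP while 7 fell in FL-shAlpl against FL-shGFP. Stromal markers summed to 23.5 to 303 CPM in FL-shAlpl, 61.3 to 360 CPM in FL-shGFP and 12.9 to 59.7 CPM in NL-shGFP, and 7 of 12 rose and 4 fell in the same comparisons. The medians of these stromal sums were 50.4, 99.3 and 27 CPM in FL-shAlpl, FL-shGFP and NL-shGFP. No marker of these 3 lists was at 0 in a whole group. Of the 10 colonic epithelium markers, 5 rose and 2 fell in FL-shGFP against NL-shGFP, and 3 rose and 2 fell in FL-shAlpl against FL-shGFP. Small intestine and Paneth cell markers, leaving out FL-shAlpl replicate 1, did not exceed 142 CPM, and Apoa4 was at 0 in NL-shGFP. With that replicate included, 3 of the 6 fitted rose in FL-shGFP over NL-shGFP, while 2 rose and 3 fell in FL-shAlpl against FL-shGFP. These calls were not repeated without it. Liver and pancreas markers summed to 79.3 to 141 CPM in FL-shAlpl, 46.4 to 104 CPM in FL-shGFP and 41.9 to 61.8 CPM in NL-shGFP, so that every FL-shAlpl sample was above every NL-shGFP sample. Of the 4 fitted, 0 passed in FL-shGFP against NL-shGFP and 1, the elastase gene Cela1, rose in FL-shAlpl over both other groups, at 107 ± 25.7, 58.1 ± 19.2 and 42.9 ± 5.80 CPM in FL-shAlpl, FL-shGFP and NL-shGFP. Serpina1c and Cpa1 were at 0 in FL-shGFP and NL-shGFP and Pnlip at 0 in FL-shAlpl and NL-shGFP. The part of these cell types in the levels of the zinc genes was not tested, and in bulk samples more cells of a type and more RNA per cell cannot be told apart.

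The rest of the zinc and metal machinery, 40 genes listed by family and function, was not used in picking the 9 genes and was tested. These lists too were drawn up with earlier results of these data known, so their adjusted p-values are not free of that choice. Of these, 39 were in the table and 37 were fitted. In FL-shGFP against NL-shGFP 6 rose, 6 fell and 25 did not pass, where 46.7% of all genes passed, and the median log2 fold change was -0.05. In FL-shAlpl against FL-shGFP 4 rose, 5 fell and 28 did not pass, where 36.0% of all genes passed. In FL-shAlpl against NL-shGFP 2 rose, 6 fell and 29 did not pass, where 17.4% of all genes passed. Adjusted p-values are over all 17404 genes.

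Mt1 and Mt3, in the same cluster on chromosome 8, were ordered differently across the groups. Mt3, known best from brain, had 3.20, 2.32, 2.18, 2.92 and 2.40 CPM in FL-shAlpl, against 2.61, 2.41, 3.27, 3.18 and 5.14 CPM in FL-shGFP and 9.41, 12.2, 10.6, 12.6 and 9.27 CPM in NL-shGFP. Both fatty liver groups were below every NL-shGFP sample and overlapped each other. Mt3 fell by 1.70 ± 0.21 in FL-shGFP against NL-shGFP (log2 scale, adjusted p = 2.94e-05, edgeR) and by 2.05 ± 0.21 in FL-shAlpl against NL-shGFP (adjusted p = 3.92e-05, edgeR). In FL-shAlpl over FL-shGFP its log2 fold change was -0.35 ± 0.20 (adjusted p = 0.185, edgeR). Mt4, the last member of the cluster, averaged at most 0.519 CPM in any group and passed in none of the 3 comparisons, with edgeR adjusted p between 0.285 and 0.825.

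**Figure D3:**
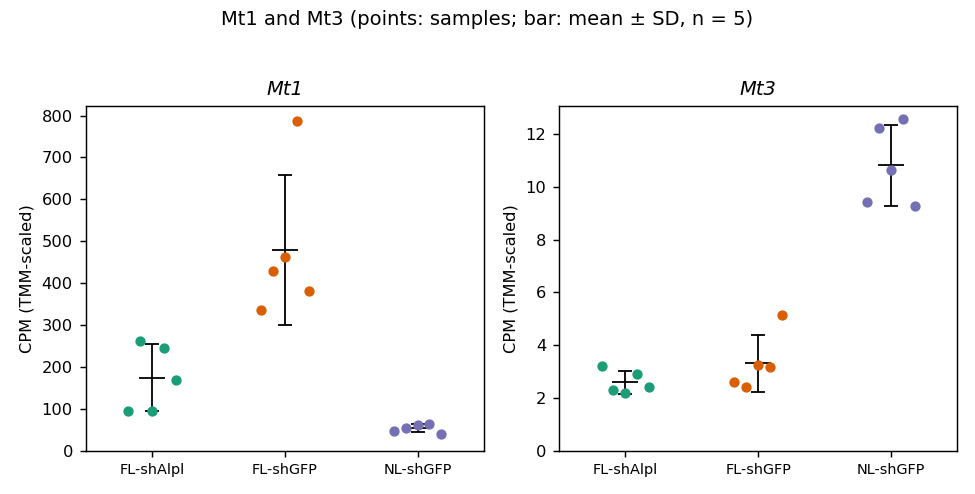
CPM of Mt1 (left) and Mt3 (right) in each sample, groups from left to right FL-shAlpl, FL-shGFP and NL-shGFP, bars and whiskers for mean ± SD (n = 5), linear axes of different range. Mt1 is lowest in NL-shGFP (40.4 to 64.5 CPM), the group in which Mt3 is highest (9.27 to 12.6 CPM).

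Of the 6 other exporters fitted, 1 rose and 1 fell in FL-shGFP against NL-shGFP, 0 passed in FL-shAlpl against FL-shGFP and 1 fell in FL-shAlpl against NL-shGFP. Of the 10 other importers, 1 rose and 2 fell, 1 rose and 1 fell, and 0 rose and 3 fell in the same comparisons. Of all genes fitted, 46.7%, 36.0% and 17.4% passed in these comparisons. Slc30a4, a vesicular exporter, rose in FL-shGFP over NL-shGFP by 0.59 ± 0.13 (adjusted p = 0.00183, edgeR), with 114 ± 15.5 against 75.7 ± 3.75 CPM (SD, n = 5). Slc39a1, an importer of the plasma membrane, rose by 0.46 ± 0.10 (adjusted p = 0.00178, edgeR) and fell by 0.35 ± 0.10 in FL-shAlpl against FL-shGFP (adjusted p = 0.0146, edgeR). Its levels were 98.2 ± 13.8, 125 ± 10.9 and 90.5 ± 4.89 CPM in FL-shAlpl, FL-shGFP and NL-shGFP. Slc30a5, an exporter of the early secretory pathway, fell by 0.39 ± 0.10 in FL-shGFP against NL-shGFP (adjusted p = 0.00453, edgeR), a call lost when libraries were scaled by their totals alone (adjusted p = 0.064, edgeR).

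Slc39a10, a plasma membrane importer, was lowest in FL-shGFP, the group in which Slc39a4 was highest. It had 38.9, 17.2, 24.3, 30.5 and 22.1 CPM in FL-shAlpl, against 8.02, 9.29, 21.2, 5.62 and 22.8 CPM in FL-shGFP and 34.6, 31.0, 28.7, 30.4 and 41.9 CPM in NL-shGFP. FL-shGFP was below NL-shGFP throughout, and its replicates 3 and 5 reached into the FL-shAlpl range. Slc39a10 fell by 1.31 ± 0.34 in FL-shGFP against NL-shGFP (adjusted p = 0.00607, edgeR). It rose by 0.99 ± 0.34 in FL-shAlpl over FL-shGFP (adjusted p = 0.0334, edgeR), a call lost under 9 of 26 alternative settings, among them leaving out FL-shGFP replicate 1, 2 or 4 or FL-shAlpl replicate 1 or 4, with a log2 fold change of 0.79 to 0.94 then. In FL-shAlpl against NL-shGFP 3 of the 10 importers fitted fell, where 17.4% of all genes passed. Slc39a8, a zinc and manganese importer, fell by 0.76 ± 0.19 (adjusted p = 0.011, edgeR) with 52.1 ± 4.02 against 88.4 ± 9.87 CPM, although not when libraries were scaled by totals alone (adjusted p = 0.054, edgeR). Slc39a13, an importer of the secretory pathway, fell by 0.59 ± 0.16 (adjusted p = 0.0207, edgeR), a call lost without NL-shGFP replicate 3 (-0.57) or 4 (-0.56), with close NL-shGFP libraries summed, or with totals alone. Slc39a8 was also lower in FL-shGFP than in NL-shGFP, with a log2 fold change of -0.52 ± 0.18 (adjusted p = 0.0299, edgeR). In FL-shAlpl over FL-shGFP that of Slc39a8 was -0.24 ± 0.18 (adjusted p = 0.33, edgeR). Slc39a9 was among the most abundant that did not pass, with 0.11 ± 0.09 in FL-shGFP over NL-shGFP (adjusted p = 0.332, edgeR) and -0.18 ± 0.09 in FL-shAlpl over FL-shGFP (adjusted p = 0.142, edgeR).

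**Figure D4:**
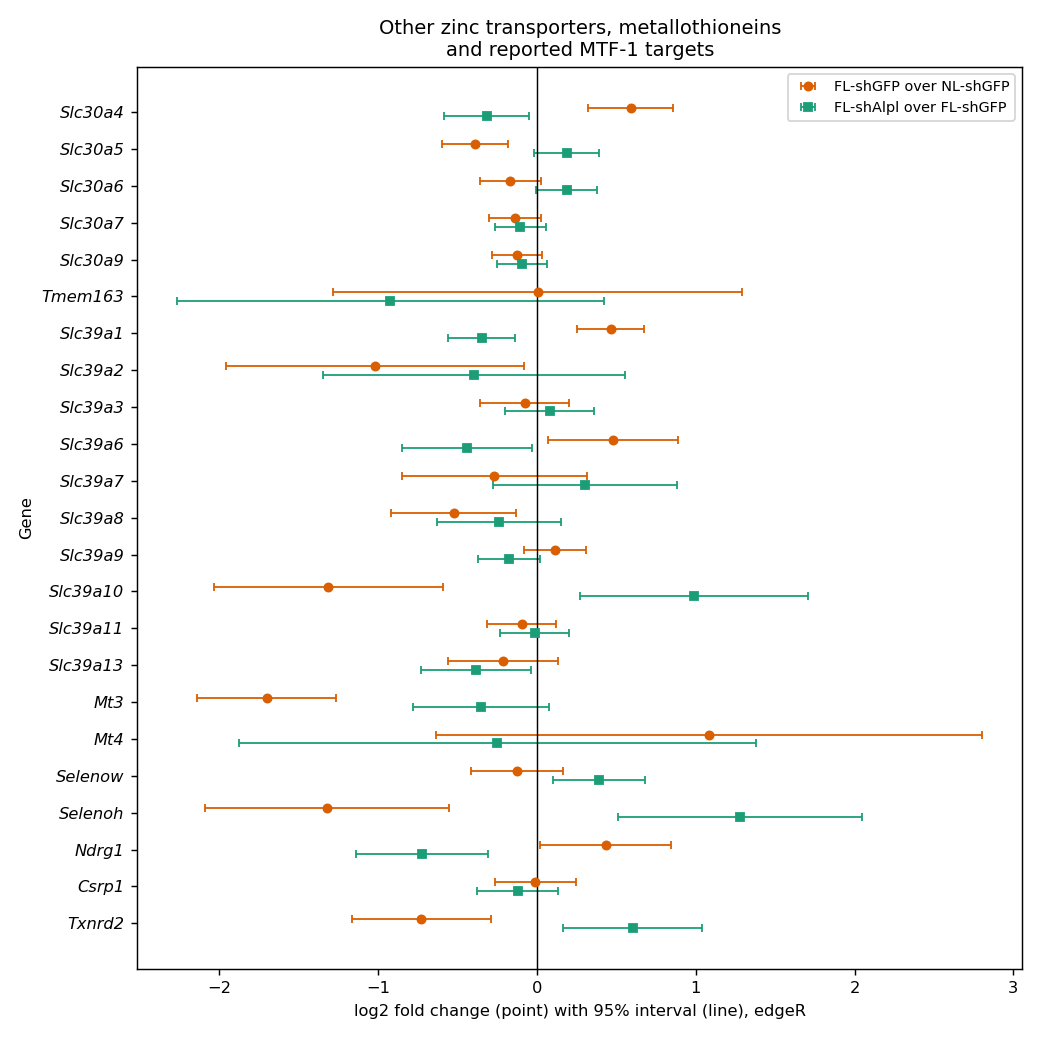
Log2 fold change (horizontal axis, points) with 95% interval (lines) from edgeR for the other zinc exporters, zinc importers, metallothioneins and reported MTF-1 targets in FL-shGFP over NL-shGFP and FL-shAlpl over FL-shGFP, genes named on the vertical axis. Mt3, Slc39a10 and Selenoh stand furthest to the left, at -1.70, -1.31 and -1.32 in FL-shGFP over NL-shGFP.

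Genes that have been reported as further targets of MTF-1 did not share one direction. They were listed without regard to whether MTF-1 raises or lowers them, and its part in their levels was not tested. Of the 5 listed, 0 rose and 2 fell in FL-shGFP against NL-shGFP, 3 rose and 1 fell in FL-shAlpl against FL-shGFP, and 0 passed in FL-shAlpl against NL-shGFP. Beside these stand 46.7%, 36.0% and 17.4% of all genes past the threshold. Selenoh, a nuclear selenoprotein, had 26.8, 13.3, 13.9, 26.0 and 9.94 CPM in FL-shAlpl, against 5.47, 8.52, 8.43, 2.20 and 12.2 CPM in FL-shGFP and 19.2, 19.6, 17.9, 20.5 and 15.3 CPM in NL-shGFP. Thus Selenoh fell by 1.32 ± 0.36 in FL-shGFP against NL-shGFP (adjusted p = 0.00838, edgeR) and rose by 1.28 ± 0.36 in FL-shAlpl over FL-shGFP (adjusted p = 0.0138, edgeR). Without FL-shAlpl replicate 1, the highest of its group, the rise was 1.09 (adjusted p = 0.0379, edgeR). Txnrd2, the mitochondrial thioredoxin reductase, fell by 0.73 ± 0.21 (adjusted p = 0.00979, edgeR) and rose by 0.60 ± 0.21 (adjusted p = 0.0323, edgeR) in the same comparisons, and Selenow rose by 0.39 ± 0.14 in FL-shAlpl over FL-shGFP (adjusted p = 0.0368, edgeR). The rise of Txnrd2 was lost with only these groups fitted and without FL-shGFP replicate 1, 2 or 4 or FL-shAlpl replicate 1, 3 or 4 (0.49 to 0.60). That of Selenow was lost without FL-shGFP replicate 1, 3, 4 or 5 or FL-shAlpl replicate 2, 3 or 5 (0.30 to 0.40). Ndrg1, a gene of hypoxia and metal stress, fell by 0.72 ± 0.20 in FL-shAlpl against FL-shGFP (adjusted p = 0.0107, edgeR), with 112 ± 25.9 against 185 ± 41.4 CPM.

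Of 14 copper and manganese genes, 4 rose and 0 fell in FL-shGFP against NL-shGFP, 0 rose and 3 fell in FL-shAlpl against FL-shGFP, and 2 rose and 1 fell in FL-shAlpl against NL-shGFP. These counts stand beside 25.1% of all genes higher in the first comparison, 17.9% lower in the second and 17.4% past the threshold in the third. Sod3, the extracellular copper and zinc superoxide dismutase, had the largest change of the 14 in FL-shGFP over NL-shGFP. It had 0.867, 4.10, 2.07, 1.27 and 5.14 CPM in FL-shAlpl, against 6.90, 3.39, 3.67, 12.05 and 3.03 CPM in FL-shGFP and 0.600, 0.548, 0.654, 0.689 and 0.398 CPM in NL-shGFP. Both fatty liver groups lay above every NL-shGFP sample, and Sod3 rose by 3.32 ± 0.52 in FL-shGFP (adjusted p = 0.000204, edgeR) and by 2.21 ± 0.51 in FL-shAlpl (adjusted p = 0.00822, edgeR) over NL-shGFP. The last of these calls was lost with NL-shGFP replicates 1 and 2, and 3 and 4, summed (adjusted p = 0.0504, edgeR). Without FL-shAlpl replicate 1, the lowest of its group, that rise was 2.44. Atp2c1, the Golgi calcium and manganese pump, rose by 0.48 ± 0.10 in FL-shGFP over NL-shGFP (adjusted p = 0.00186, edgeR). Atp7a, a copper pump, rose by 0.43 ± 0.12 in FL-shAlpl over NL-shGFP (adjusted p = 0.0251, edgeR), a call lost without NL-shGFP replicate 1, 2 or 4 or FL-shAlpl replicate 2 or 3 (0.36 to 0.42). Atp7a also rose by 0.44 ± 0.12 in FL-shGFP over NL-shGFP (adjusted p = 0.00936, edgeR). In FL-shAlpl over FL-shGFP its log2 fold change was -0.01 ± 0.12 (adjusted p = 0.964, edgeR).

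Cox17, which carries copper to cytochrome c oxidase, was lower in FL-shAlpl than in either other group, with 2.20 ± 0.67, 3.94 ± 0.61 and 4.08 ± 0.26 CPM in FL-shAlpl, FL-shGFP and NL-shGFP. It fell by 0.84 ± 0.20 against FL-shGFP (adjusted p = 0.00552, edgeR) and by 0.89 ± 0.20 against NL-shGFP (adjusted p = 0.00731, edgeR), without overlap between samples in both. Slc31a2, a copper transporter of intracellular membranes, fell by 0.48 ± 0.14 in FL-shAlpl against FL-shGFP (adjusted p = 0.014, edgeR). Sod1, the abundant cytosolic copper and zinc superoxide dismutase, did not pass in any comparison with all samples, at 288 ± 40.7, 271 ± 65.6 and 236 ± 21.0 CPM in FL-shAlpl, FL-shGFP and NL-shGFP (edgeR adjusted p between 0.22 and 0.684). The copper importer Slc31a1 rose by 0.46 ± 0.15 in FL-shGFP over NL-shGFP (adjusted p = 0.017, edgeR) and had a log2 fold change of -0.18 ± 0.15 in FL-shAlpl over FL-shGFP (adjusted p = 0.364, edgeR).

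The genes whose profile over the 15 samples was nearest to that of a zinc gene were sought among 12110 genes by the root mean square difference of centred log2 CPM, where 0 is an identical profile. Nearest to Mt1, whose own profile had a root mean square of 1.35 about its mean, were Azin2 (0.40), an antizyme inhibitor of polyamine metabolism, Tmem37 (0.43) and Pde9a (0.45), a cGMP phosphodiesterase. Pde9a had 235 ± 95.7, 855 ± 152 and 98.6 ± 13.8 CPM in FL-shAlpl, FL-shGFP and NL-shGFP. For Slc39a4, with 0.51 about its mean, the nearest were Zfand3 (0.13) and the riboflavin transporter Slc52a3 (0.15). The nearest profiles to Slc30a10 were those of the carboxylesterase Ces2a (0.63), Pcsk1n (0.73) and the cytochrome P450 Cyp2c55 (0.74), and Ces2a too ran from 34.5 to 149 CPM within NL-shGFP. Nearest to Slc39a5 were Tcaim (0.14), Pccb, a subunit of propionyl-CoA carboxylase (0.16), and Slc18b1 (0.16). Among the 9 genes themselves, Slc39a4 was nearest to Slc30a1 (0.46), Slc39a14 (0.45) and Mtf1 (0.41), and Mt1 and Mt2 were nearest to each other (0.87). The distance is not scaled to the spread of a gene. A gene that varies little, such as Slc39a14, can therefore be near another without a shared profile. These distances use the same libraries throughout, share their cell composition and are a description with no test.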

How the data were processed

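RNA of colonic crypts was column-purified and enriched for mRNA, per the labels' protocols, and HISAT2 was used, per the submitters' processing notes, which give no version. The authors deposited integer read counts and FPKM per gene. The genome build was not given in the sources used here, nor were the counter and its strand setting. Deposited FPKM equalled counts divided by gene length and library total (relative spread at most 1.4e-06). Gene lengths equalled the GENCODE M21 exon union in 98.2% of 31233 genes matched. All 15 columns were used, and 32241 of 32939 genes matched a symbol.

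The 9 genes and all lists were chosen with earlier results of these data known. One edgeR 4.0.16 quasi-likelihood model (R 4.3.3, robust, TMM factors, a mean per group) was fitted to 17404 genes passing filterByExpr, with 12 residual degrees of freedom, two-sided tests and Benjamini-Hochberg adjustment at 0.05. The biological coefficient of variation was 30.2%. Code was tested on simulated counts. Named genes are the 9, Alpl and, of the other zinc and metal genes, up to 4 rises and 4 falls by p and up to 3 abundant ones not passing per comparison, and the 3 nearest profiles of 4 genes (mean at least 1 CPM, prior count 2), of which 1 is not reported here. Mt4, and the markers and repeated values beside results, were added to these. DESeq2 1.42.0 was an alternative. Promoters came from RefSeq (GRCm38.p6). Figures used Python 3.11.15 and matplotlib 3.10.9.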

Additional observations from a re-analysis of the deposited data

Results flagged for a closer look

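In 27 sets of 5 samples (9 genes in 3 groups), a single sample far from the others was looked for with Dixon's test, which chance flags in about 1 of 20 sets. It flagged 4. FL-shGFP replicate 4 held 17.2 CPM of Slc30a10, against at most 7.58 CPM in the other 4 samples, and 786 CPM of Mt1, against at most 462 CPM. FL-shAlpl replicate 2 held 0.918 CPM of Mt2, against at most 0.292 CPM in the other 4, and 26.0 CPM of Mtf1, against at most 21.96 CPM. FL-shGFP replicate 4 also had the highest immune and stromal marker sums of all 15 samples, 693 and 360 CPM, and FL-shAlpl replicate 2 the highest surface colonocyte sum of its group, 9380 CPM. Their part in these values was not tested.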

How the results depend on the processing

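The counts of calls and the log2 fold changes of the 9 zinc genes, Alpl and the other zinc and metal genes, in the comparisons that named them, were recomputed under 26 alternatives (24 or 25 for Mt2 and Alpl); marker counts and nearest profiles were not. None of these genes past the threshold changed sign. Sod1, which did not pass, ran from -0.039 (without FL-shGFP replicate 4) to 0.17 (without FL-shGFP replicate 3) in FL-shAlpl over FL-shGFP, against 0.09 with all samples. The other zinc and metal genes that passed in FL-shAlpl against NL-shGFP numbered 8, and 5 with no filter on low counts, 4 with NL-shGFP replicates 3 and 4 summed, 3 with replicates 1 and 2 summed as well (chosen after seeing the data), and 4 to 9 with 1 sample left out. In FL-shAlpl against FL-shGFP they numbered 9, and 5 with only these groups fitted and 5 to 11 with 1 sample left out. Of the 9 zinc genes 7 passed there, and 4 to 7 with 1 sample left out. Genes changed in FL-shAlpl against NL-shGFP numbered 3035, and 1340 with both NL-shGFP pairs summed and 1979 (without FL-shAlpl replicate 2) to 3523 with 1 sample left out. Mt2 moved most among the zinc genes, and the cause was not tested. Scaled by totals alone, 65.8% of changed genes were higher in FL-shGFP over NL-shGFP and 75.0% in FL-shAlpl over NL-shGFP, against 53.8% and 53.4%. Upper-quartile factors gave 42.3% in FL-shAlpl over NL-shGFP. Totals alone moved the median of all genes in FL-shAlpl over NL-shGFP to 0.19, against 0.05.

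Replicate numbers were not taken as pairs, since same-number correlations ran from -0.353 to 0.326, with 3 of 5 over 0.1 in FL-shGFP against NL-shGFP and 0 in the other comparisons. With the replicate block, 7295, 5074 and 2457 genes changed in FL-shGFP against NL-shGFP, FL-shAlpl against FL-shGFP and FL-shAlpl against NL-shGFP, with 7, 6 and 2 of the 9 zinc genes (Slc30a1 lost in FL-shAlpl against FL-shGFP) and 12, 7 and 6 of the other zinc and metal genes (Txnrd2 lost in FL-shAlpl against FL-shGFP, adjusted p = 0.0526, edgeR). Of 5 numbers, 3, 1 and 2 correlated best with their own in these comparisons. Mt2 had at most 81 counts and Alpl at most 25 in a library, which limits their precision.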

Other observations

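Mt1 and Mt2 counts did not keep 1 ratio across libraries. In FL-shAlpl replicates 1 to 5 there were 434, 287, 717, 843 and 1710 Mt1 counts per Mt2 count, and in FL-shGFP 294, 542, 458, 326 and 267. In NL-shGFP replicates 2, 3 and 5 there were 740, 928 and 178, and replicates 1 and 4 had 0 Mt2 counts. With at most 81 Mt2 counts in a library, these ratios carry a wide counting error.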
